A study of Mus musculus with 8 samples.

Results

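The genes described here are 10 genes of plasma cell differentiation, Prdm1, Irf4, Xbp1, Bhlha15, Sdc1, Jchain, Mzb1, Derl3, Eaf2 and Slpi. They were chosen by name and found by matching Ensembl identifiers to mouse symbols, and all 10 of them, out of 46983 genes in the table, had enough reads to be tested. The data are RNA sequencing read counts of wild-type mouse bone marrow B cells under hypoxia, in 4 Estrogen and 4 Vehicle libraries. Estrogen libraries came from cells that received estrogen, and Vehicle libraries from cells that received the solvent alone. Both groups share the wild-type genotype and the hypoxia, so no library shows these genes without hypoxia, and the labels give no age of the mice. The study's methods state that B cells were taken with magnetic beads and then cultured. Whether the 4 libraries of each group are separate animals or cultures is not stated, and p-values therefore describe the spread between libraries, part of which may be technical.

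A B cell becomes an antibody-secreting plasma cell by exchanging one set of regulators for another. IRF4 and BLIMP-1, the product of Prdm1, start the change and silence the B cell programme that PAX5, BACH2 and BCL6 maintain. XBP1 and MIST1, the product of Bhlha15, then enlarge the endoplasmic reticulum and its secretory machinery. Plasma cells live for long periods in the bone marrow, carry syndecan-1 (CD138, Sdc1) and the BCMA receptor (Tnfrsf17), and make the J chain, which joins IgM and IgA into polymers. Several of these genes are not restricted to plasma cells. Precursor B cells make Irf4 and Sdc1, and plasmacytoid dendritic cells make Xbp1 and Mzb1. Slpi, a protease inhibitor, is also made by neutrophils.

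The libraries held 30181834 to 39088597 reads. Levels are given as CPM, the reads of a gene per 1000000 library reads after TMM scaling, and the floor of detection, set at 3 reads, was 0.0779 to 0.102 CPM. Vehicle 3 differed from the other libraries in sex-linked RNA, with 3540 reads of the Y-linked gene Ddx3y, against 20 in Estrogen 3, and with only 2.39 CPM of Xist, which coats the inactive X chromosome. Beside the members whose values depend on Vehicle 3, the value without it is given. RNA of other marrow cells was present in all 8 libraries, as described with the marker lists, and in bulk RNA fewer cells of a type and less RNA per cell cannot be told apart.

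The label of the gene group was checked first against its most specific markers. Jchain, which plasma cells make in large amounts, had only 26, 10, 46 and 48 reads in Estrogen 1 to 4 and 61, 57, 11 and 34 reads in Vehicle 1 to 4. Tnfrsf17 had 2, 3, 1 and 6 reads in Estrogen and 2, 0, 1 and 3 reads in Vehicle, too few to be tested. Reads of class-switched heavy chains were between 0.0839% and 0.206% of heavy chain constant reads in Estrogen and between 0.0483% and 0.158% in Vehicle. The genes therefore describe the plasma cell programme as far as it was read out in a sorted B cell fraction, and of the defining markers Tnfrsf17 was at or close to the floor of 3 reads and Jchain was low but above it in both groups.

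Scaled to length, as CPM per kilobase of annotated exon, the 10 genes spread over more than 2 orders of magnitude. Over all 8 libraries the level of Mzb1 was 189 ± 54.9 CPM per kilobase (mean ± SD, n = 8), that of Irf4 109.7 ± 12.2 and that of Xbp1 73.5 ± 8.87. Sdc1 followed at 27.1 ± 2.75 and Slpi at 14.9 ± 4.26 CPM per kilobase. Bhlha15 (5.56 ± 1.28), Derl3 (4.25 ± 1.25) and Eaf2 (3.79 ± 0.918) lay close together. Prdm1 at 1.65 ± 0.380 and Jchain at 0.430 ± 0.226 CPM per kilobase were the lowest. The ranges over libraries overlapped between the neighbours Mzb1 and Irf4, Irf4 and Xbp1, Bhlha15 and Derl3, and Derl3 and Eaf2, so these orders were not settled by the data. All other neighbours in this order had ranges that did not overlap. The level of Mzb1 is uncertain, because 53.5% of the 50-base windows of its transcripts also occur in the gene model SPATA24, which overlaps it on the same strand. SPATA24 has no row in the deposited counts, and how reads of the shared stretch were counted is not stated. In every other member 1.47% of windows or fewer were shared with another gene.

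**Figure D1:**
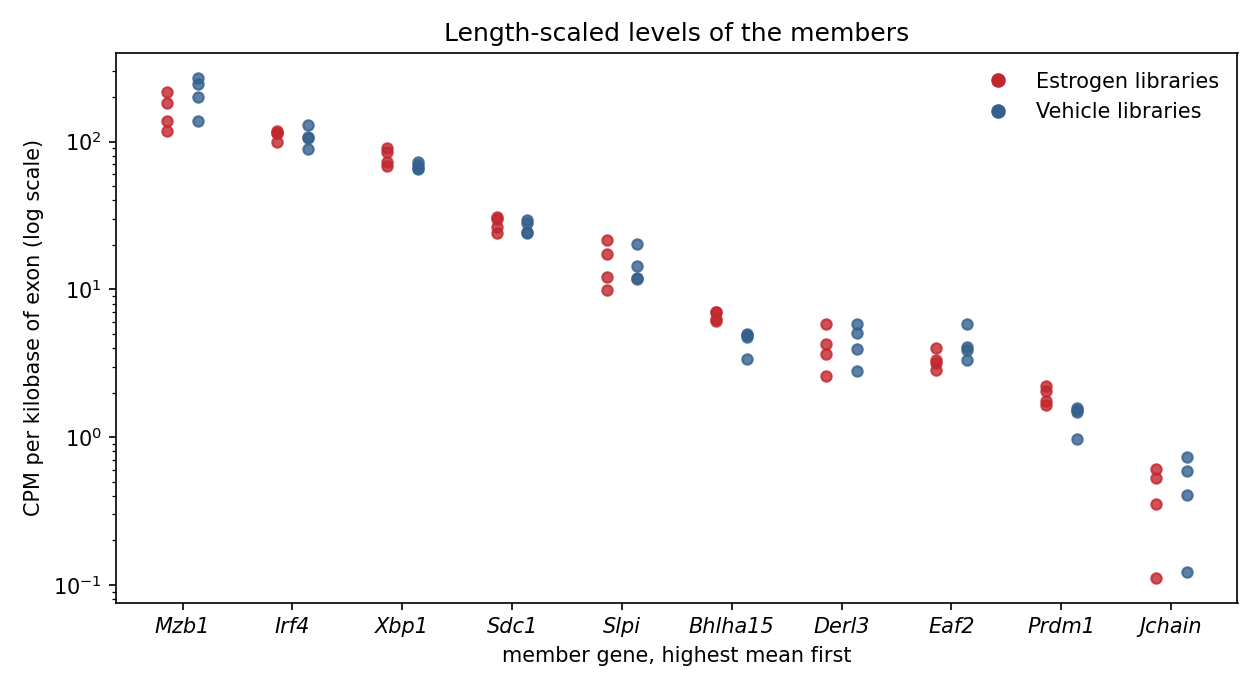
Level of each gene in CPM per kilobase of exon on a log axis, with 1 point for each Estrogen and each Vehicle library and the genes ordered by their mean over 8 libraries. Mzb1, Irf4 and Xbp1 lie highest, at means of 189, 109.7 and 73.5, and Jchain lies lowest at 0.430.

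The promoters of 3 regulator genes are shown because Prdm1 and Bhlha15 were the members whose Estrogen libraries all lay above all Vehicle libraries, and Xbp1 acts beside them in the secretory programme. Each stretch is the 250 bases before the annotated start in RefSeq on GRCm38.p6, read 5′ to 3′ on the strand of the gene. Capitals mark ACGTG or GCGTG, the core of hypoxia response elements bound by HIF, or GGTCA, the repeated core of the estrogen response element, on either strand. Their coordinates are chr10:44458749-44458998 on the minus strand for Prdm1, chr5:144190036-144190285 on the plus strand for Bhlha15 and chr11:5520391-5520640 on the plus strand for Xbp1.
Prdm1: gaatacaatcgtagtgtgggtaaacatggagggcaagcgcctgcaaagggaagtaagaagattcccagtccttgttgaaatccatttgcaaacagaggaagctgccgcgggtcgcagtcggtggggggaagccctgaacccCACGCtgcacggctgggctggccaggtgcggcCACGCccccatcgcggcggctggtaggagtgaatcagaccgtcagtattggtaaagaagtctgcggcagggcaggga
Bhlha15: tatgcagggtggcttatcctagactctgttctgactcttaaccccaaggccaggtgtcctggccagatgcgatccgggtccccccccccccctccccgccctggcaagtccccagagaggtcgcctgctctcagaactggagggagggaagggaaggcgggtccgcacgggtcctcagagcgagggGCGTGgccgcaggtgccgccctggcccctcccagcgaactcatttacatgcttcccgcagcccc
Xbp1: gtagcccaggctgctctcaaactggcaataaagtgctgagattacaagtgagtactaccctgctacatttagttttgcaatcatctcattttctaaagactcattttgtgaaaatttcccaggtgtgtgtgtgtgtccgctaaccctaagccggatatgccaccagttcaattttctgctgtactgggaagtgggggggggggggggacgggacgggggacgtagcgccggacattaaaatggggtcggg

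Motifs were counted on both strands in windows from 250 bases before to 50 bases after the start, for the 9 members with a RefSeq promoter entry and for all 32851 entries. Prdm1 held 2 copies of GCGTG and Bhlha15 held 1 copy of GCGTG and 1 of ACGTG, which starts at position 20 after the annotated start and so lies beyond the stretch printed. Xbp1 held neither. One or the other motif was found in 8 of 9 members and in 43.8% of all entries, with ACGTG in 19.6% and GCGTG in 32.4%, entries with both counted in each. GGTCA was found in 3 of 9 members, Jchain, Irf4 and Eaf2, and in 40.5% of all entries. The whole estrogen response element, with GGTCA on both strands around a spacer, was in 0 of 9 members and 0.07% of entries, and an interferon-stimulated response element was in 0 of 9 and 3.44%. CCACG, the end of the endoplasmic reticulum stress element, was found in 6 of 9 members and in 32.8% of entries, and it overlaps GCGTG and ACGTG where their bases run together. Genes with several entries, such as Eaf2, were counted once among the members and had the motif if any entry held it. The percentages count entries instead, so the shares of members and of entries are not like for like. These matches describe letters in a window and do not show binding.

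Among the regulators, Bhlha15 and Prdm1 had higher levels in Estrogen in these libraries, Xbp1 had a higher mean and Irf4 was nearly equal, but none of these differences passed the test across all genes. Bhlha15 (ENSMUSG00000052271, chromosome 5, 144190286 to 144194441, plus strand, GRCm38) encodes MIST1, the factor that enlarges the secretory apparatus. It was at 21.3, 24.7, 21.9 and 24.6 CPM in Estrogen 1 to 4, against 17.2, 16.6, 11.7 and 17.3 CPM in Vehicle 1 to 4. All 4 Estrogen libraries lay above all 4 Vehicle libraries, and Vehicle 3 was the lowest. The means were 23.1 ± 1.78 CPM in Estrogen and 15.7 ± 2.68 CPM in Vehicle (SD, n = 4 each), a ratio of 1.47. The fitted log2 difference, Estrogen minus Vehicle as throughout, was 0.56 ± 0.14 (SE), with a 95% interval of 0.24 to 0.88. The p-value of edgeR's quasi-likelihood test was 0.00328 before and 0.860 after Benjamini-Hochberg adjustment over 15175 genes, against a threshold of 0.05. Without Vehicle 3 the log2 difference was 0.45 ± 0.11 and the unadjusted edgeR p was 0.00353.

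Prdm1 (ENSMUSG00000038151, chromosome 10, 44437177 to 44528501, minus strand) encodes BLIMP-1, the repressor that plasma cells need in order to secrete antibody. It was at 9.24, 11.4, 12.4 and 9.72 CPM in Estrogen 1 to 4, against 8.76, 8.26, 5.40 and 8.48 CPM in Vehicle 1 to 4. The groups did not overlap, though the lowest Estrogen library, Estrogen 1, was close to Vehicle 1. The means were 10.7 ± 1.47 CPM in Estrogen and 7.72 ± 1.56 CPM in Vehicle, a ratio of 1.38. The log2 difference was 0.47 ± 0.19 with a 95% interval of 0.06 to 0.89. The p-value of edgeR's quasi-likelihood test was 0.0303 before and 0.860 after adjustment. As for Bhlha15, the lowest library was Vehicle 3. Without it the log2 difference was 0.34 ± 0.15 and the unadjusted edgeR p was 0.0534.

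Xbp1 (ENSMUSG00000020484, chromosome 11, 5520659 to 5525893, plus strand) encodes the factor that drives secretory genes once its RNA has been spliced by IRE1. The spliced form cannot be read from gene counts. Xbp1 was at 234, 274, 222 and 291 CPM in Estrogen and 226, 214, 211 and 236 CPM in Vehicle. Estrogen 2 and Estrogen 4 lay above every Vehicle library, while Estrogen 1 and Estrogen 3 lay within the Vehicle range. The means were 255 ± 32.6 CPM in Estrogen and 222 ± 11.4 CPM in Vehicle. The log2 difference was 0.20 ± 0.11 with an interval of -0.03 to 0.44 (edgeR adjusted p = 0.860). Vehicle 3 was the lowest library, and without it the log2 difference was 0.19 ± 0.12. Irf4 (ENSMUSG00000021356, chromosome 13, 30749226 to 30766976, plus strand) encodes the factor that acts both early in B cell precursors and in plasma cells. It was at 558, 489, 580.1 and 558 CPM in Estrogen and 517, 526, 439.6 and 638 CPM in Vehicle. The groups overlapped, with the highest library, Vehicle 4, and the lowest, Vehicle 3, both in Vehicle. Its log2 difference was 0.04 ± 0.13 with an interval of -0.24 to 0.33 (edgeR adjusted p = 0.932), and it was -0.023 without Vehicle 3.

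**Figure D2:**
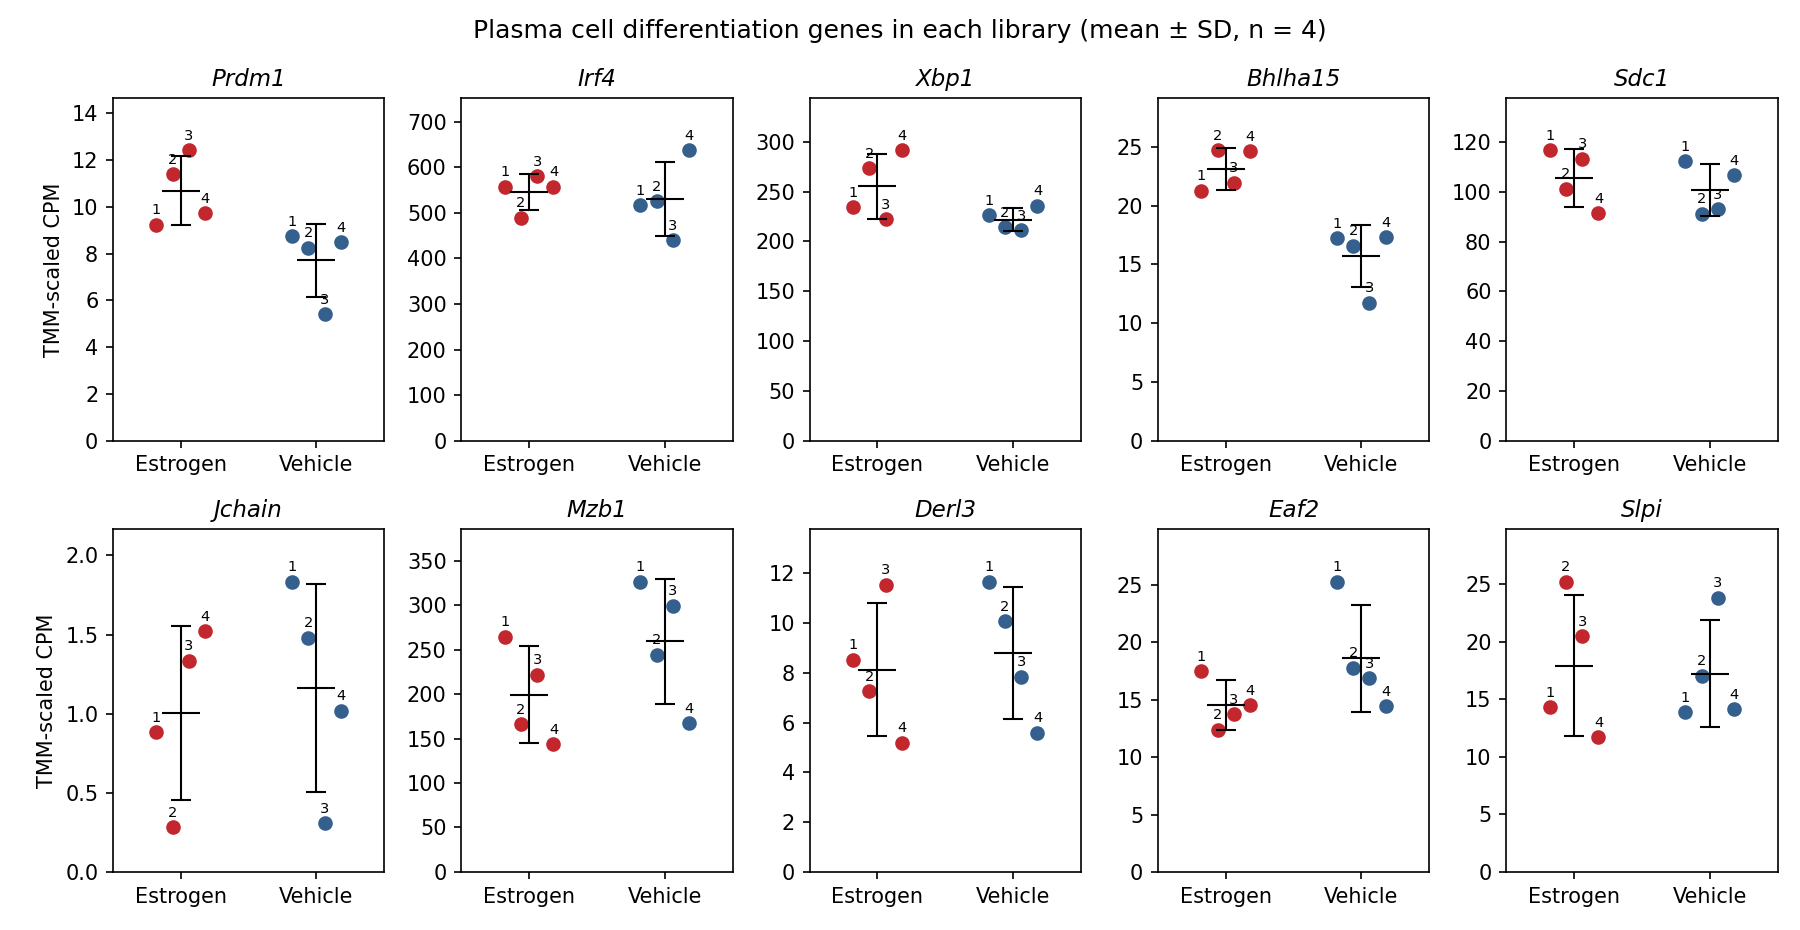
TMM-scaled CPM of each of the 10 genes, with 1 point for each library, Estrogen left of Vehicle, and the mean ± SD of 4 libraries; every axis starts at 0. In Prdm1 and Bhlha15 the 4 Estrogen points lie above the 4 Vehicle points, and in the other 8 genes the groups overlap.

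Sdc1 and the genes that assemble or quality-check antibody had overlapping groups. Sdc1 (ENSMUSG00000020592, chromosome 12, 8771323 to 8793715, plus strand), the gene of the surface proteoglycan CD138, was at 117, 101, 113 and 91.3 CPM in Estrogen and 112, 91.1, 93.0 and 107 CPM in Vehicle. The groups covered almost the same range. The means were 106 ± 11.6 CPM in Estrogen and 101 ± 10.3 CPM in Vehicle, with a log2 difference of 0.07 ± 0.11 and an interval of -0.17 to 0.31 (edgeR adjusted p = 0.885). That interval excludes a change of 1.5-fold in either direction in these libraries.

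Jchain (ENSMUSG00000067149, chromosome 5, 88519809 to 88527891, minus strand) was at 0.883, 0.282, 1.33 and 1.52 CPM in Estrogen and 1.84, 1.48, 0.309 and 1.02 CPM in Vehicle. Estrogen 2 and Vehicle 3 were the lowest, and the groups overlapped over nearly the whole range. The means were 1.01 ± 0.551 CPM in Estrogen and 1.16 ± 0.659 CPM in Vehicle. The log2 difference of -0.21 ± 0.58 had a 95% interval of -1.52 to 1.10 (edgeR adjusted p = 0.929), which includes changes of 2-fold in either direction, so a difference of that size could not be seen against the spread between libraries. Its sign turned without Vehicle 1 (0.11) and without Estrogen 2 (0.10), and it was -0.52 without Vehicle 3.

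Mzb1 (ENSMUSG00000024353, chromosome 18, 35647267 to 35649367, minus strand) encodes a cochaperone that helps IgM assemble in the endoplasmic reticulum. It was at 265, 166, 222 and 144 CPM in Estrogen and 327, 244, 299.6 and 167 CPM in Vehicle. The Vehicle libraries held the 2 highest values, but Vehicle 2 and Vehicle 4 lay among the Estrogen libraries. The means were 199 ± 54.5 CPM in Estrogen and 259 ± 70.5 CPM in Vehicle, with a log2 difference of -0.38 ± 0.24 and an interval of -0.92 to 0.16 (edgeR adjusted p = 0.860). It was -0.23 without Vehicle 1, -0.25 without Estrogen 4 and -0.54 without Estrogen 1. Derl3 (ENSMUSG00000009092, chromosome 10, 75893413 to 75895941, plus strand) encodes a membrane protein that removes misfolded proteins from the endoplasmic reticulum. It was at 8.53, 7.28, 11.5 and 5.19 CPM in Estrogen and 11.7, 10.1, 7.85 and 5.60 CPM in Vehicle, so that replicate 4 was the lowest in both groups. The log2 difference was -0.11 ± 0.28 with an interval of -0.75 to 0.53 (edgeR adjusted p = 0.925), and it was 0.068 without Vehicle 1 and 0.05 without Estrogen 4.

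Eaf2 (ENSMUSG00000022838, chromosome 16, 36792884 to 36875003, minus strand) encodes a partner of the elongation factor ELL. It was at 17.5, 12.4, 13.8 and 14.5 CPM in Estrogen and 25.3, 17.8, 16.9 and 14.4 CPM in Vehicle. Vehicle 1 was the highest, and Vehicle 3 and Vehicle 4 lay within the Estrogen range. The means were 14.5 ± 2.15 CPM in Estrogen and 18.6 ± 4.69 CPM in Vehicle, with a log2 difference of -0.36 ± 0.19 and an interval of -0.77 to 0.06 (edgeR adjusted p = 0.860). Without Vehicle 1 the difference was -0.15. Eaf2 overlaps Iqcb1 on the opposite strand, with 0 exon bases in common.

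Slpi (ENSMUSG00000017002, chromosome 2, 164354070 to 164389095, minus strand) was at 14.3, 25.2, 20.5 and 11.7 CPM in Estrogen and 13.9, 17.1, 23.8 and 14.1 CPM in Vehicle. The 3 highest libraries were Estrogen 2, Vehicle 3 and Estrogen 3. These were also the 3 libraries with the highest summed level of 15 neutrophil markers, at 11027, 10185 and 8944 CPM, against 3867 to 4942 CPM in the other 5, and the part of neutrophil RNA in the Slpi values was not tested. The log2 difference of Slpi was 0.06 ± 0.26 with an interval of -0.53 to 0.65 (edgeR adjusted p = 0.953), and its sign turned without Vehicle 1 (-0.01), Vehicle 4 (-0.02), Estrogen 2 (-0.15) or Estrogen 3 (-0.0062). Without Vehicle 3 it was 0.27.

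**Figure D3:**
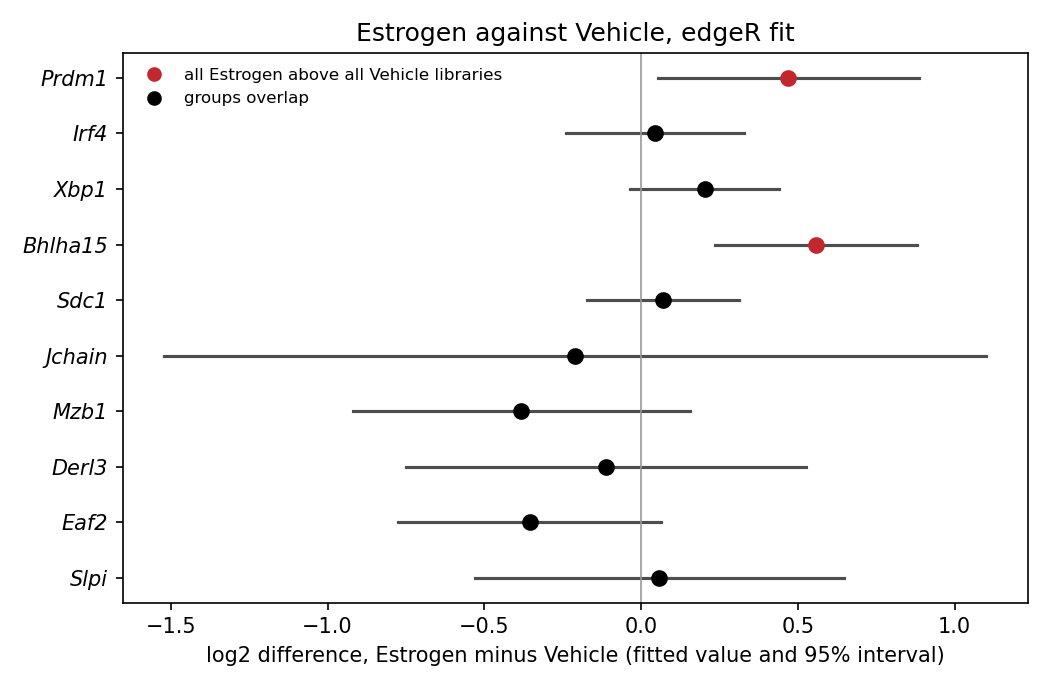
Fitted log2 difference, Estrogen minus Vehicle, of each of the 10 genes with its 95% interval. Coloured points mark Prdm1 (0.47) and Bhlha15 (0.56), whose groups do not overlap, and the interval of Jchain, -1.52 to 1.10, is the widest.

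Taken as a group, 6 of the 10 genes had a positive and 4 a negative log2 difference, with a median of 0.05 against -0.0054 over all genes tested. At an adjusted p under 0.05 in edgeR's quasi-likelihood test 0 of 10 members passed, as did 0% of all genes tested, while 534 genes had an unadjusted p under 0.05. DESeq2 and limma-voom gave 721 and 500 such genes, and called 1 and 0 genes. At an unadjusted p under 0.05 the members included 2 that were higher in Estrogen, Prdm1 and Bhlha15, and 0 that were lower, where the shares of all genes were 2.26% and 1.26%. The same 2 were the members without overlap that were higher in Estrogen, and 0 were lower, where 0.896% and 0.771% of all genes had groups that did not overlap in these directions. Without Vehicle 3, a check chosen after the data were seen, 1 member, Bhlha15, had an unadjusted p under 0.05, beside 495 of 15449 genes in either direction. Without that library the median of the 10 log2 differences was 0.011. The sum of the 10 genes was 1112 to 1245 CPM in Estrogen and 1109 to 1261 CPM in Vehicle, so the totals covered the same range.

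The rest of the plasma cell programme showed no common direction. Of 24 further genes of the programme 22 were tested, 11 higher and 11 lower, with a median log2 difference of 0.02, and 0 passed. Hid1, a gene of secretory granule sorting, was at 11.2 ± 4.63 CPM in Estrogen and 5.14 ± 3.12 CPM in Vehicle (SD, n = 4 each). Its log2 difference was 1.12 ± 0.42, but the groups overlapped (edgeR adjusted p = 0.860). Ero1lb, an oxidase that forms disulfide bonds, was at 135 ± 21.7 CPM in Estrogen and 168 ± 32.0 CPM in Vehicle. Fndc3b was at 28.3 ± 10.1 and 19.1 ± 7.78 CPM in Estrogen and Vehicle, and the inhibitory receptor gene Tigit at 0.498 ± 0.318 and 0.886 ± 0.452 CPM.

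Receptors and signalling genes that lead to plasma cells were lower in Estrogen in 13 of 17 genes, with a median of -0.22, and 0 passed. The interleukin-5 receptor gene Il5ra was at 16.1 ± 6.63 CPM in Estrogen and 25.3 ± 7.39 CPM in Vehicle, a log2 difference of -0.65 ± 0.32. Cd38, the gene of an enzyme on the surface of B cells and plasma cells, was between 144 and 242 CPM in Estrogen and between 187 and 319 CPM in Vehicle, with a log2 difference of -0.41 ± 0.22. The cytokine receptor genes Il10ra (142 ± 26.1 CPM in Estrogen and 192 ± 53.5 CPM in Vehicle) and Il21r (155 ± 18.3 and 185 ± 26.0 CPM) lay in the same direction. None of these 4 had groups without overlap (edgeR adjusted p = 0.860 for each).

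The factors that hold the B cell state, against which Prdm1 acts, were lower in 13 of 16 genes, with a median of -0.12, and 0 passed. Pax5, the main B cell identity factor, was at 888 ± 139 CPM in Estrogen and 1042 ± 137 CPM in Vehicle, a log2 difference of -0.23 ± 0.15. Bach2, a repressor of Prdm1, was at 698 ± 64.7 CPM in Estrogen and 651 ± 175 CPM in Vehicle, a difference of 0.10 ± 0.18. Bcl6, the germinal centre repressor, was at 63.1 ± 8.05 CPM in Estrogen and 66.4 ± 7.04 CPM in Vehicle (-0.07 ± 0.12). Of the genes with the smallest p in this list, Id3, an inhibitor of E proteins, was at 84.2 ± 23.2 CPM in Estrogen and 114 ± 31.6 CPM in Vehicle. Bcl11a, a factor of early B cell development, was at 161 ± 20.6 and 185 ± 22.1 CPM in Estrogen and Vehicle, and Mitf, which restrains antibody secretion in mouse B cells, at 7.75 ± 3.44 and 5.29 ± 1.24 CPM.

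Endoplasmic reticulum stress sensors and secretory genes that depend on XBP1 were higher in Estrogen in 24 of 30 genes, with a median of 0.09, and 0 passed. Of these 30 genes 7 had an unadjusted p under 0.05, all higher in Estrogen, and in 5 the groups did not overlap, beside the shares of all genes given with the members. Hyou1, a chaperone that exchanges nucleotides on BiP, was at 232 ± 20.1 CPM in Estrogen and 184 ± 17.5 CPM in Vehicle, a log2 difference of 0.33 ± 0.10. Dnajc3, an inhibitor of the kinase PERK, was at 167 ± 16.3 CPM in Estrogen and 137 ± 7.31 CPM in Vehicle, and Sec61a1, the channel of the translocon, at 162 ± 6.93 and 137 ± 9.32 CPM. Sdf2l1, a stress-induced protein of the endoplasmic reticulum, was at 35.5 ± 3.23 CPM in Estrogen and 28.8 ± 2.23 CPM in Vehicle. In these 4 genes the groups did not overlap, while edgeR's adjusted p was 0.860 for each. Ern1, which encodes IRE1, the nuclease that splices Xbp1 RNA, was between 74.1 and 141 CPM in Estrogen and between 49.1 and 109 CPM in Vehicle, a log2 difference of 0.63 ± 0.29 (edgeR adjusted p = 0.860). Hspa5, which encodes BiP, was at 578 ± 14.4 CPM in Estrogen and 523 ± 52.2 CPM in Vehicle.

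Immunoglobulin constant region genes were read as a separate list, and how much of their RNA belonged to antibody secretion was not tested. The summed levels of heavy chain and of light chain constant genes were lowest in Estrogen 2, Estrogen 4 and Vehicle 4. The sums of B lineage markers, described below, were lowest in the same libraries. All 5 heavy chain constant genes tested and all 4 light chain constant genes had negative log2 differences, with medians of -0.22 and -0.23, and 0 passed. The light chain median was -0.088 without Vehicle 1, -0.092 without Estrogen 2 and -0.47 without Estrogen 1, and the heavy chain median -0.35 without Vehicle 4 and -0.13 without Vehicle 2. Ighm, the IgM heavy chain gene, was at 7222 ± 1470.1 CPM in Estrogen and 8813 ± 1442 CPM in Vehicle, and Igkc, the kappa chain gene, at 1469.7 ± 430.1 and 2019 ± 536 CPM. Constant region reads made up 1.22%, 0.810%, 1.08% and 0.871% of all reads in Estrogen 1 to 4, against 1.36%, 1.16%, 1.29% and 0.943% in Vehicle 1 to 4. The means of 0.994 ± 0.188% in Estrogen and 1.19 ± 0.182% in Vehicle were not separated by the test (exact two-sided permutation test, p = 0.171, where 0.0286 is the smallest p for 4 against 4). Class-switched reads, those of IgG, IgA and IgE among heavy chain constant reads, were 0.114%, 0.0962%, 0.0839% and 0.206% in Estrogen, against 0.139%, 0.158%, 0.0483% and 0.124% in Vehicle. Estrogen 4 was the highest library and Vehicle 3 the lowest. The means were 0.125 ± 0.0552% in Estrogen and 0.117 ± 0.0481% in Vehicle, with p = 0.857 in the same exact permutation test, and the sign of the difference turned without Estrogen 4 (-0.0193 percentage points) or Vehicle 3 (-0.0154).

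Markers of other cells moved with the groups for some types, and their part in the values of the 10 genes was not tested. Of 15 markers of plasmacytoid dendritic cells, which also make Xbp1 and Mzb1, 12 were higher in Estrogen (median 0.30), and their sum was 2523 to 3976 CPM in Estrogen and 2183 to 3012 CPM in Vehicle. Siglech, their defining surface receptor gene, was at 1032 ± 318 CPM in Estrogen and 654 ± 189 CPM in Vehicle, and Grm8 at 8.74 ± 0.586 and 6.42 ± 1.15 CPM, with no overlap. Estrogen 2 and Estrogen 4, the libraries highest in Xbp1 and in Bhlha15, had the highest sums of these markers, 3346 and 3976 CPM. B lineage markers were lower in 11 of 16 genes (median -0.09), with sums of 5726 to 10079 CPM in Estrogen and 6782 to 11618 CPM in Vehicle. Fcer2a, the IgE receptor gene of mature B cells, was at 35.2 ± 7.81 CPM in Estrogen and 70.3 ± 26.9 CPM in Vehicle. The lowest sums of B lineage markers, in Estrogen 2, Estrogen 4 and Vehicle 4, belonged to the 3 libraries that were also lowest in Mzb1. These 3 libraries also had the highest sums of plasmacytoid dendritic cell markers, with 3012 CPM in Vehicle 4. Mzb1 was thus lowest where those markers were highest, unlike Xbp1.

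Neutrophil markers were higher in 10 of 15 genes (median 0.21), but the median was -0.031 without Estrogen 2, 0.034 without Vehicle 4, 0.048 without Estrogen 3 and 0.62 without Vehicle 3. Their sums were 4007 to 11027 CPM in Estrogen and 3867 to 10185 CPM in Vehicle, and the granule gene Camp was at 250.1 ± 129 and 306 ± 221 CPM. Monocyte and macrophage markers were higher in 13 of 16 genes (median 0.53), with sums of 2014 to 4032 CPM in Estrogen and 2001 to 3336 CPM in Vehicle. Of the genes with the smallest p in this list, Cd68 (log2 difference 0.48), C1qa (0.86) and C1qc (0.68) were higher. Ly6c2 was lower, and the lowest log2 difference in the list was -0.62, so the list had no single direction. T and NK cell markers were lower in 11 of 13 genes tested. The median was -0.59, and it was -0.87 without Vehicle 3 and -0.23 with a filter of 1 CPM in 4 libraries. Their sums were 130.9 to 246.9 CPM in Estrogen and 113.6 to 190.0 CPM in Vehicle. The means of these sums, 170.2 CPM in Estrogen and 146.4 CPM in Vehicle, went against the sign of the median. Most of each mean came from the 2 genes that were higher in Estrogen, Cd8a and Cd4. Cd8a averaged 78.9 CPM in Estrogen and 50.7 CPM in Vehicle, and Cd4 averaged 79.2 and 73.1 CPM. Among these markers Cd8b1 was at 7.07 ± 0.995 CPM in Estrogen and 14.4 ± 0.964 CPM in Vehicle, with no overlap. It had the smallest adjusted p of all genes, 0.452 in edgeR's test. Basophil and mast cell markers, with sums of 26.7 to 66.9 CPM in Estrogen and 25.8 to 70.6 CPM in Vehicle, were higher in 5 of 8 genes. Proliferation genes were higher in 7 of 12 (median 0.03), and Mki67, a marker of cycling cells, was at 151 ± 73.3 CPM in Estrogen and 130.4 ± 53.4 CPM in Vehicle. No gene of any of these lists had 0 reads in all libraries and none passed the test.

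**Figure D4:**
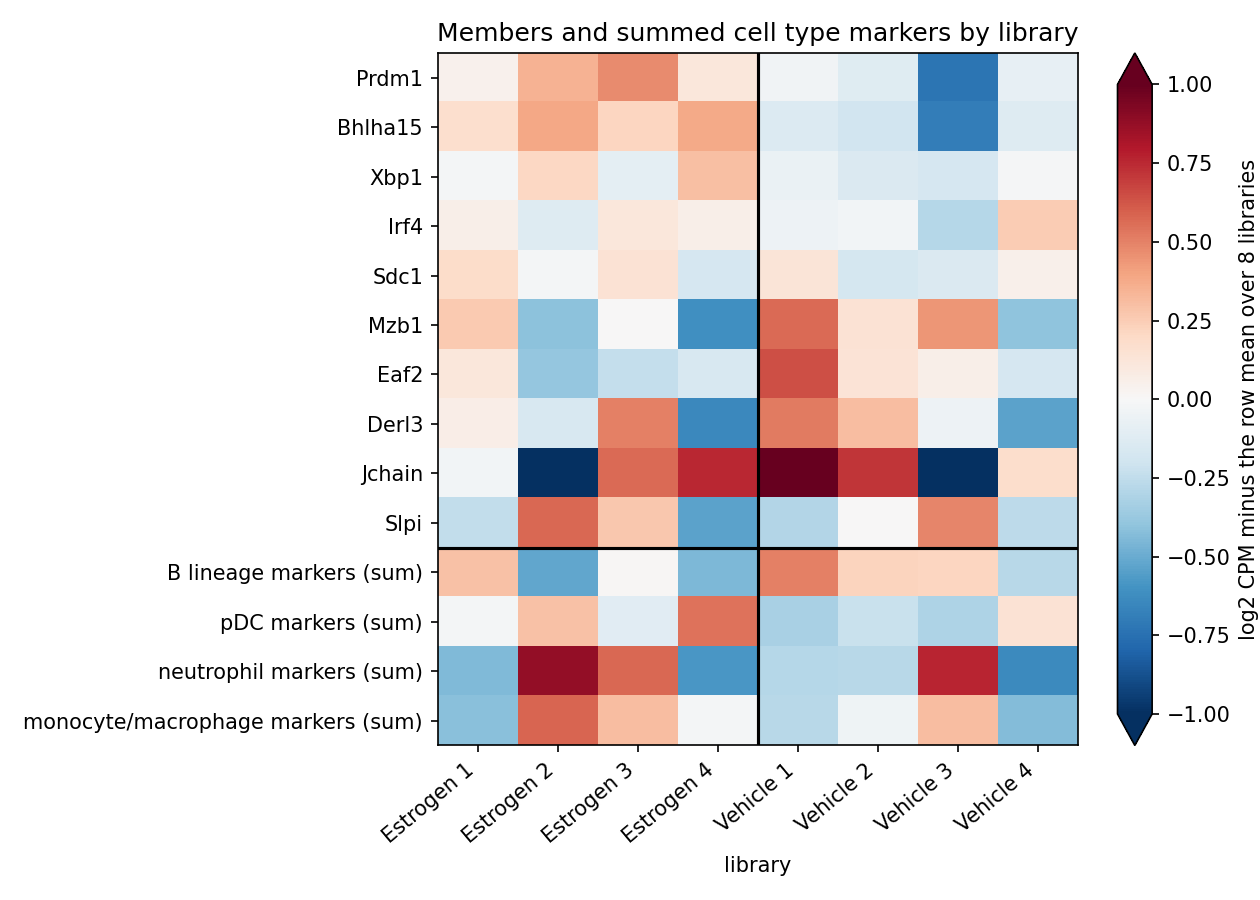
Log2 CPM of the 10 genes and of summed marker lists in each library, minus the row mean over 8 libraries, with the Estrogen libraries left of the Vehicle libraries. Slpi is high in Estrogen 2, Estrogen 3 and Vehicle 3, as are the neutrophil markers. Prdm1, Bhlha15, Xbp1 and Irf4 are lowest in Vehicle 3.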

How the data were processed

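RNA was sequenced from 8 libraries of mouse bone marrow B cells. Per the labels, cells were sorted magnetically and libraries made with the Illumina TruSeq RNA kit from Trizol-extracted RNA. The authors deposited raw read counts per Ensembl gene, without normalization. CASAVA, Bowtie 0.12.2 and mm10 are named in the submitters' processing notes. Which counter, annotation release and strand setting were used is not given, so a gene and an overlapping gene on the other strand cannot be told apart, and reads over exon junctions or shared between near-identical genes may have been lost.

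Symbols and coordinates came from GENCODE M21 on GRCm38, which matched 46488 of 46983 identifiers (98.9%). Exon length is the union of annotated exons. The counts were fitted with edgeR 4.0.16 (R 4.3.3). Genes kept by filterByExpr (15175) were scaled by TMM, fitted by glmQLFit with robust shrinkage and compared with a two-sided quasi-likelihood F-test, with Benjamini-Hochberg adjustment over all of them and a threshold of 0.05. Shares of immunoglobulin reads were compared by exact permutation in Python 3.11.15 with scipy 1.17.1. The 95% intervals of the log2 differences come from the edgeR fit and include the spread between libraries. The floors on reads cover counting error only. Libraries of a group differed by more than counting noise (chi-square per degree of freedom of at least 26.2). Simulated counts with 200 altered genes were used to test the fit.

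The 10 genes, the 14 lists and the tests were chosen with earlier results of these data known. All 10 genes are given in every library. From each other list the genes with the smallest p were eligible for naming, up to 4, beside Tnfrsf17, Pax5, Bach2, Bcl6, Hspa5, Ern1, Siglech, Camp and Mki67. A further gene that this rule names is not reported here. For Jchain, Prdm1 and Xbp1 the 3 genes with the most similar log2 CPM (prior count 2, mean of at least 1 CPM) are named. Ddx3y, Xist, Cd8a and Cd4 were chosen after their values were seen. Alternatives were DESeq2 1.42.0 size factors, library totals, no low-count filter, a filter of 1 CPM in 4 libraries, limma-voom (limma 3.58.1) with and without sample weights, the Wald test of DESeq2, no robust shrinkage, the replicate number as a block, each library left out and a threshold of 0.1. Sequences are from RefSeq on GRCm38.p6.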

Additional observations from a re-analysis of the deposited data

Results flagged for a closer look

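In 24 groups of 4 libraries, made of the 10 genes, the 2 immunoglobulin shares and each of the 2 treatments, a library was looked for whose gap to its nearest neighbour exceeded 0.829 of the range of its group, Dixon's limit for 4 values. By chance about 5% of groups would give such a library. It was found in Vehicle for Prdm1, at 5.40 CPM in Vehicle 3 against 8.26 to 8.76 CPM in the other Vehicle libraries, and for Bhlha15, at 11.7 CPM in Vehicle 3 against 16.6 to 17.3 CPM. Vehicle 3 is also the library that held Y-linked RNA. Without it the log2 difference was 0.45 for Bhlha15 and 0.34 for Prdm1.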

How the results depend on the processing

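For the 10 genes, 161 of 170 values under the alternatives kept the sign of the log2 difference and stayed on the same side of the threshold of 0.05. The signs that turned, for Irf4 without Vehicle 3 (-0.023), Jchain without Vehicle 1 (0.11) or Estrogen 2 (0.10), Derl3 without Vehicle 1 (0.068) or Estrogen 4 (0.05), and Slpi without Vehicle 1 (-0.01), Vehicle 4 (-0.02), Estrogen 2 (-0.15) or Estrogen 3 (-0.0062), all belong to genes whose interval spans 0. No member passed under any alternative, with adjusted p of 0.168 to 1.0 for Bhlha15 and 0.321 to 1.0 for Prdm1. With each library left out in turn, their log2 differences were 0.45 to 0.62 for Bhlha15 and 0.34 to 0.55 for Prdm1, and those of the 4 genes that turned were -0.023 to 0.15 for Irf4, -0.52 to 0.11 for Jchain, -0.33 to 0.068 for Derl3 and -0.15 to 0.27 for Slpi. The median of the 10 genes, 0.051, ran from 0.0054 (without Estrogen 3) to 0.096 (without Estrogen 4) with a library left out, and was 0.10 with library totals and 0.12 with sample weights. With a library left out the medians of the other lists ran across 0 for the further plasma cell genes (-0.027 to 0.077), proliferation genes (-0.16 to 0.11), B lineage markers (-0.23 to 0.0029), neutrophil markers (-0.031 to 0.62) and basophil and mast cell markers (-0.13 to 0.20).

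Over all genes, 0 were called in the edgeR fit, at a threshold of 0.1 as well. The DESeq2 Wald test and limma-voom with sample weights each called 1, Cd8b1, and the replicate block called 1, Tgm2. Genes at an unadjusted p under 0.05 numbered 534 in the edgeR fit, 936 without the low-count filter, 2296 with sample weights and 2175 with the replicate block, and 227 (without Estrogen 2) to 2156 (without Vehicle 4) with a library left out. The median of all genes was 0.046 with library totals and -0.0054 with TMM. The difference in the class-switched share ran from -0.0193 to 0.0212 percentage points with a library left out, with the lowest values without Estrogen 4 (-0.0193) and Vehicle 3 (-0.0154). The cause of these shifts was not tested.

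Replicate numbers are shared by the groups, but no source says what they pair. Deviations of same-numbered libraries correlated at 0.67, -0.13, 0.08 and 0.55 across genes, and 4 of 8 libraries were closest to their own number. By chi-square per degree of freedom the closest of all pairs were Vehicle 1 with Estrogen 1 (17.8) and Vehicle 4 with Estrogen 4 (21.7). Both values lie below the lowest within a group, 26.2. Whether the numbers pair libraries is not settled by these values. With the replicate block the adjusted p was 0.168 for Bhlha15, 0.178 for Mzb1, 0.297 for Eaf2, 0.325 for Prdm1 and 0.337 for Xbp1. The unadjusted edgeR p in that fit was 0.000986 for Bhlha15, 0.0356 for Prdm1 and 0.0425 for Xbp1, all higher in Estrogen. It was 0.00137 for Mzb1 and 0.0223 for Eaf2, both lower in Estrogen. Of all 15175 genes in that fit, 2175 had an unadjusted p under 0.05. Tnfrsf17, with at most 6 reads in a library, was too shallow to test.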

Other observations

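As a description only, the genes most like 3 members in log2 CPM over the 8 libraries were sought among the 12962 genes that averaged 1 CPM or more. The libraries share depth and cell mixture, and the best of so many genes has a high correlation by selection. For Prdm1 they were Vps33a (Pearson r = 0.956, Spearman rho = 0.952), Fam219a (0.928 and 0.738) and Grtp1 (0.92 and 0.905). For Xbp1 they were Ubxn4 (0.983 and 0.976), Smim5 (0.974 and 0.929), which is also a marker of plasmacytoid dendritic cells, and Rnd3 (0.961 and 0.929). For Jchain they were Lipo3 (0.95 and 0.833), Gstt2 (0.938 and 0.952) and Dzip1 (0.937 and 0.952). Searched in the same way after the data were seen, Slpi was most like Lpcat4 (r = 0.987) and Cebpe (0.985), a regulator of granulocyte maturation, and Mzb1 was most like Psmb4 (0.997), a proteasome subunit gene.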
